A study of Mus musculus with 24 samples.

Results

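The Serpina3 gene cluster is a run of neighbouring genes on mouse chromosome 12 that encode serine protease inhibitors of clade A. The set described here holds 9 genes, Serpina3b, Serpina3c, Serpina3f, Serpina3g, Serpina3h, Serpina3i, Serpina3k, Serpina3m and Serpina3n, of the 18892 gene symbols in the expression table. They were chosen by their family name together with measured values of these same libraries, in which Serpina3b and Serpina3k moved in opposite directions between androgen-injected and saline-injected mice. The contrast of injected with saline mice therefore chose the set, and its values are given below as a description with no test. Serpina3h had no row in the table, and the RefSeq annotation (GRCm38.p6) lists it as a transcribed pseudogene. The other 8 had a row, and all 8 passed the filter on low values (FPKM of at least 1 in at least 4 of the 24 libraries). Serpina3f passed it with 9 libraries, all of day 15, so a difference between days was built into its passing. Serpina3i passed with 14 libraries and Serpina3k with 16, while the other 5 genes were at or above 1 FPKM in 23 or 24 libraries. For both Serpina3i and Serpina3k, 1 library of saline-injected mice of day 15 and 0 of day 10 were among them. Both thus passed almost only through androgen-injected mice, which favours a difference from saline-injected mice.

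The study measured poly(A) RNA of mouse skin in 24 libraries, 1 per mouse, in 6 groups of 4 mice. Treatment mice received daily injections of the androgen dihydrotestosterone (DHT) and an HLX extract on the skin. Model mice received the same DHT injections and solvent on the skin, and control mice received saline injections and solvent. Skin was taken from 4 mice of each kind at day 15 and from the other 4 at day 10. All mice thus had a topical application and daily injections, DHT was given to the whole animal, and no group received the extract without DHT. Sex, strain and age of the mice are not given in the labels used here.

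Serpins present a flexible loop as bait to a protease, and cleavage of that loop traps the enzyme in a dead complex. Humans have a single SERPINA3 gene, whose product alpha-1-antichymotrypsin blocks chymotrypsin-like enzymes such as cathepsin G and is made in large amounts by the liver in the acute phase of inflammation. In the mouse this locus has expanded into a series of genes whose bait loops differ, so that members act on different proteases. Mouse Serpina3n inhibits granzyme B and neutrophil proteases, Serpina3g (Spi2A) also inhibits cysteine cathepsins, and Serpina3k (contrapsin) inhibits trypsin.

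The values are FPKM, which divides the fragments of a gene by its length and by the depth of the library, so levels of different genes can be compared per length. Recovered depths were 37048896 to 41117262 reads per library, and the members were covered by 7 reads (Serpina3f in a control library of day 10) to 22271 reads (Serpina3n in a model library of day 15). Skin markers were high in all libraries, with 335.7 to 782.8 FPKM for Krt5 and 257.3 to 633.2 FPKM for Krt14, the keratins of basal epidermis. Of 14 hepatocyte markers, 10 stayed under 1 FPKM in every library, Alb was at 0.262 to 1.5 FPKM, and the list's sum of 74.5 to 722 FPKM was mostly Cyp2e1 (69.2 to 719 FPKM), a cytochrome P450. Some libraries stood apart. The kidney genes Kap, Umod and Slc34a1 were present in all 8 model and control mice of day 10 (13.98 to 23.85 FPKM for Kap), whereas Kap and Umod were listed at 0 in all 16 other libraries, treatment mice of day 10 included. The sum of 10 kidney markers was 27.5 to 37.9 FPKM in those 8 libraries and 6.02 to 14.3 FPKM in the others, where Cyp4b1, present in every library, made up nearly all of it. Every comparison with model or control mice of day 10 holds these libraries, and the part of the kidney RNA in the Serpina3 values was not tested. The summed FPKM of 4 Y-linked genes was 22.3 in treatment replicates 1 and 2 of day 15, 33.4 in replicate 4 of that group and 28.3 in treatment replicate 3 of day 10, against 39.2 to 50.6 in the other libraries. Neutrophil markers summed to 3108 FPKM in model replicate 3 of day 15, against 45.7 to 481 FPKM in the other 23 libraries.

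In the RefSeq annotation the genes lie in the order Serpina3a, b, c, f, g, h, i, j, k, m, n, with pseudogenes and other short genes between them. RefSeq promoter sequence of GRCm38.p6 was matched for 6 of the 9 genes, and for Serpina3f at 2 starts. The promoters of Serpina3b, of its neighbour Serpina3c and of Serpina3n at the far end are shown because Serpina3b went against the other members under DHT. Serpina3j, in the cluster but not chosen, also had lower means in model than in control mice. Its window, not shown, was 43.9% identical to that of Serpina3b. Each line holds the 250 bases before the start, 5′ to 3′ on the gene's strand. Capitals mark AGAACA, a core element of the steroid receptor family to which the androgen receptor belongs, and an NF-kB site described below.

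Serpina3b (chr12:104127746-104127995, plus strand): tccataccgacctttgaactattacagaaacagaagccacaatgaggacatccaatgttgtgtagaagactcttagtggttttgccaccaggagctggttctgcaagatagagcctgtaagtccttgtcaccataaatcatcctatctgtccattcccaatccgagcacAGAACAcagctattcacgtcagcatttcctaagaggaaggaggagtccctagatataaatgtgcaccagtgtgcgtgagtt
Serpina3c (chr12:104153873-104154122, minus strand): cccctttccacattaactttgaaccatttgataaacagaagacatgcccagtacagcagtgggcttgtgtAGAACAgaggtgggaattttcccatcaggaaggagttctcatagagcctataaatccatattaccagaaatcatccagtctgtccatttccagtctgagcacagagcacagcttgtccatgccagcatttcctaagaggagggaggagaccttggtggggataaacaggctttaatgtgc
Serpina3n (chr12:104406458-104406707, plus strand): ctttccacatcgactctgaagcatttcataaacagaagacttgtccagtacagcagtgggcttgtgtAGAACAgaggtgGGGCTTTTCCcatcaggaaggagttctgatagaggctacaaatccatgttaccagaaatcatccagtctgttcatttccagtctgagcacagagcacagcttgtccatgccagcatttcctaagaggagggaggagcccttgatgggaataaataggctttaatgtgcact

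All 3 windows hold the element AGAACA, 81 bases before the start in Serpina3b, 180 in Serpina3c and 183 in Serpina3n. It lies in 16.0% of 32536 RefSeq promoters of this length, searched on both strands, so the match is a description and not a site of binding. The promoters of Serpina3c and Serpina3n were 90.5% identical over their alignment, against 66.8% for Serpina3b with Serpina3c and 69.0% for Serpina3b with Serpina3n. The other members with a window were less like Serpina3c than Serpina3b was. Serpina3f had 61.0% and 44.9% at its 2 starts, Serpina3g 35.0% and Serpina3i 64.4%. With Serpina3n they had, in the same order, 60.6% and 45.0%, 41.4% and 62.2%. A link between promoter likeness and direction under DHT was not tested. The sequences of Serpina3g and Serpina3i are shown because, of the windows searched, these 2 held both a STAT site (TTCNNNGAA) and an NF-kB site (GGG, any 3 bases, TTCC), which capitals mark along with AGAACA.

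Serpina3g (chr12:104235897-104236146, plus strand): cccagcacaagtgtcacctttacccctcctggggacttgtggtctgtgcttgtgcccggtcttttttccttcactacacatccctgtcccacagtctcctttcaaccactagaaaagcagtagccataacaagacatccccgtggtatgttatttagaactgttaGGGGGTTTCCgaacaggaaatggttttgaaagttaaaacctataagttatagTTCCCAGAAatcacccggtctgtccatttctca
Serpina3i (chr12:104262872-104263121, plus strand): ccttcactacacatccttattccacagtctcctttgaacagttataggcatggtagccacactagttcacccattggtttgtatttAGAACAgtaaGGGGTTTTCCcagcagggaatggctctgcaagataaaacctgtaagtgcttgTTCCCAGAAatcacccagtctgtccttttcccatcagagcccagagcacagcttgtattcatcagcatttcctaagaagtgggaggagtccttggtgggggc

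The STAT letters lie in 7.04% and the NF-kB letters in 4.65% of all promoters. Serpina3f also held the STAT letters and Serpina3n the NF-kB letters. The full palindrome of the steroid receptors, in 0.00922% of all promoters, was in none of the windows of the cluster. The interferon-stimulated letters (GAAA, any 2 bases, GAAA), in 2.98% of all promoters, were in none either.

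The transcripts of the cluster resemble each other, which bears on how reads could be assigned. In GENCODE M21 transcripts, no 100-base window of Serpina3b or Serpina3c was found in another transcript of the cluster, and 0.204% of the windows of Serpina3n were. Serpina3k shared 4.85% of its windows with Serpina3m, and the pair was 89.9% identical over 1670 aligned bases. Serpina3f, Serpina3g and Serpina3i shared 3.58%, 4.64% and 2.33% of their windows with other members. How reads that fit several genes were counted, and whether counting used strand, is not given in the sources used here, so part of the Serpina3k and Serpina3m values, and of the Serpina3f, Serpina3g and Serpina3i values, is uncertain.

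**Figure D1:**
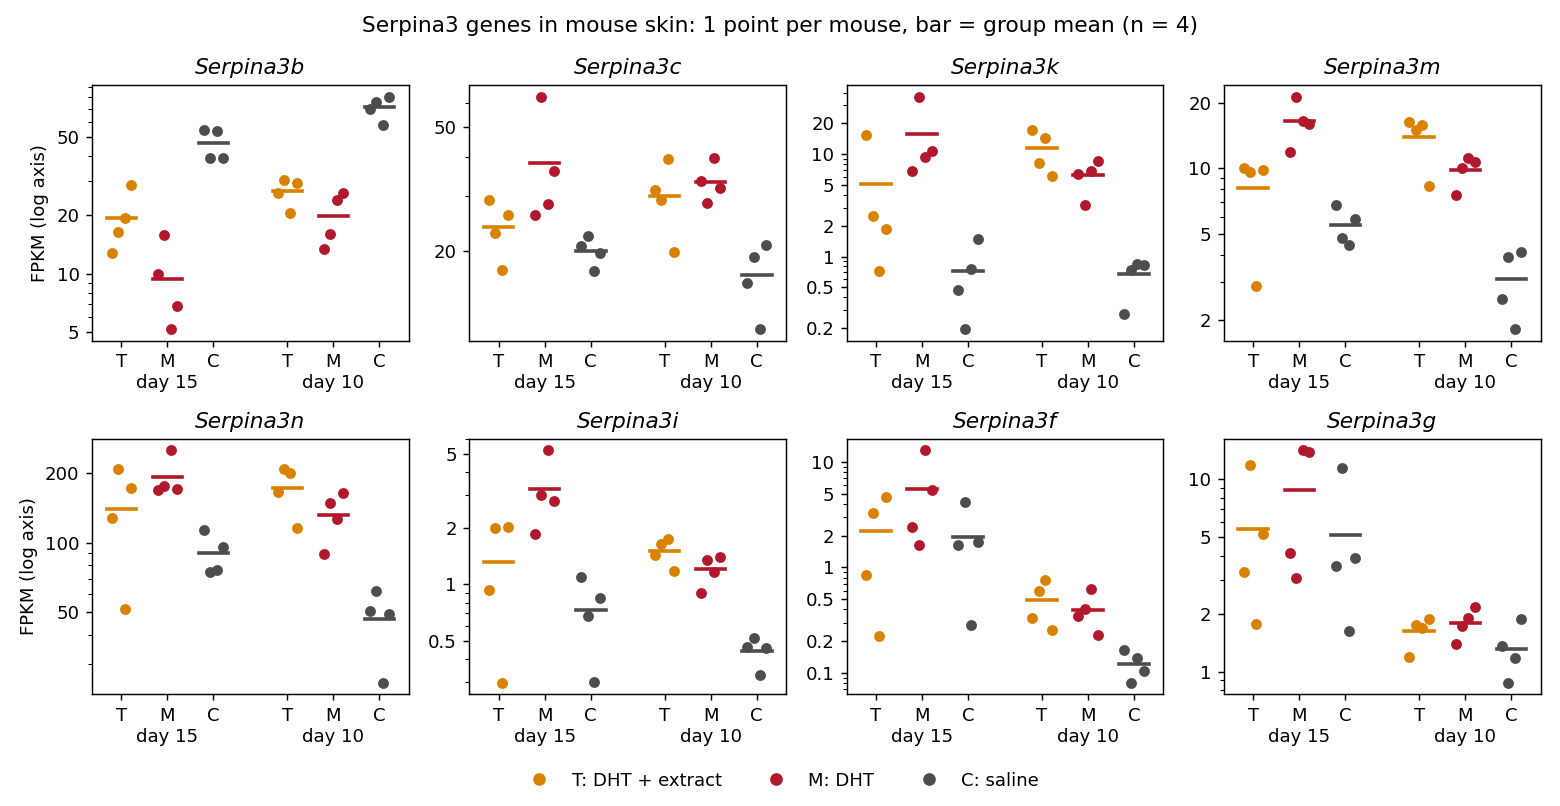
FPKM of 8 Serpina3 genes on log axes, 1 point per mouse and a bar at the mean of 4 mice, for treatment (T), model (M) and control (C) mice at day 15 and day 10. Serpina3b is highest in control mice (38.9 to 80.8 FPKM), whereas Serpina3k lies at or below 1.47 FPKM in all control mice and reaches 36.5 FPKM in a model mouse.

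Serpina3n was the most abundant member per length, with a mean of 129 FPKM over the 24 libraries (rank 488 of all genes), followed by Serpina3b at 32.1, Serpina3c at 27.1 and Serpina3m at 9.46 FPKM. Serpina3k averaged 6.69, Serpina3g 4.02, Serpina3f 1.80 and Serpina3i 1.41 FPKM. The members also differed in how far their level moved. Serpina3k spanned 187-fold and Serpina3f 159-fold between the lowest and highest library, whereas Serpina3c spanned 5.62-fold and Serpina3n 10.1-fold. The plot of values by mouse shows all 8 genes.

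Serpina3b was low in model skin and high in control skin at both days. At day 15 its level was 9.94, 15.8, 5.20 and 6.81 FPKM in model mice, against 54.6, 39.3, 53.9 and 38.9 FPKM in control mice. At day 10 the gene was at 13.4, 15.9, 23.8 and 25.8 FPKM in model mice, against 70.0, 76.2, 58.1 and 80.8 FPKM in control mice. The highest model mouse was below the lowest control mouse at each day. The log2 difference of FPKM + 1 between model and control was -2.28 (SE 0.27) at day 15 and -1.84 (SE 0.27) at day 10. In a bulk sample of skin, fewer cells of a type that makes a transcript and less of that transcript per cell cannot be told apart.

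The group means of Serpina3b, from low to high, were 9.44 ± 4.69 FPKM in model mice of day 15 (SD, n = 4 here and below), 19.2 ± 6.79 in treatment mice of day 15, 19.7 ± 5.97 in model mice of day 10 and 26.5 ± 4.46 in treatment mice of day 10. Control mice followed with 46.7 ± 8.78 FPKM at day 15 and 71.3 ± 9.85 FPKM at day 10. The 4 lower groups overlapped with their neighbours in this order, while the control groups overlapped neither with the treatment mice of day 10 nor with each other.

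Serpina3k, which encodes contrapsin, had the opposite pattern. At day 15 it stood at 6.91, 36.5, 9.36 and 10.8 FPKM in model mice, against 0.468, 0.196, 0.762 and 1.47 FPKM in control mice. At day 10 the values were 6.41, 3.20, 6.91 and 8.63 FPKM in model mice, against 0.277, 0.739, 0.839 and 0.820 FPKM in control mice. All 8 model mice were above all 8 control mice, and the control values rest on 12 to 92 recovered reads. The log2 difference was 3.05 (SE 0.53) at day 15 and 2.08 (SE 0.53) at day 10. From high to low, the group means were 15.9 ± 13.9 FPKM in model mice of day 15, 11.5 ± 5.18 in treatment mice of day 10, 6.29 ± 2.27 in model mice of day 10 and 5.13 ± 6.94 in treatment mice of day 15, followed by control mice with 0.724 ± 0.550 at day 15 and 0.669 ± 0.265 at day 10. Every neighbouring pair in this order overlapped. The mean of day 15 model mice was drawn up by replicate 2.

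Serpina3m, the neighbour of Serpina3k, was at 11.9, 21.3, 16.5 and 16.0 FPKM in model mice of day 15, against 6.81, 4.76, 4.45 and 5.83 FPKM in control mice. Day 10 gave 7.55, 9.99, 11.1 and 10.7 FPKM in model mice, against 2.51, 3.90, 1.82 and 4.12 FPKM in control mice. Model and control mice did not overlap at either day, and the log2 differences were 1.42 (SE 0.29) at day 15 and 1.44 (SE 0.29) at day 10.

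Serpina3n, the granzyme B inhibitor, was at 169.5, 175.6, 251 and 169.9 FPKM in model mice of day 15, against 114, 74.9, 76.2 and 96.3 FPKM in control mice. The day 10 values were 89.8, 149, 126 and 164 FPKM in model mice, against 50.7, 61.8, 24.9 and 49.2 FPKM in control mice. The groups did not overlap at either day. The log2 difference was 1.08 (SE 0.34) at day 15 and 1.52 (SE 0.34) at day 10, and control mice of day 15 lay above all control mice of day 10.

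Serpina3c moved less. It was at 26.1, 62.9, 28.4 and 36.2 FPKM in model mice of day 15, against 20.8, 22.4, 17.3 and 19.7 FPKM in control mice. At day 10 it was at 33.5, 28.6, 39.8 and 32 FPKM in model mice, against 15.8, 19.2, 11.2 and 20.9 FPKM in control mice. Again no model mouse overlapped with a control mouse of its day, and the log2 differences were 0.82 (SE 0.24) at day 15 and 0.98 (SE 0.24) at day 10.

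Serpina3i was rare in all groups. Its level was 1.86, 3.02, 5.25 and 2.81 FPKM in model mice of day 15, against 1.10, 0.676, 0.300 and 0.851 FPKM in control mice, with no overlap. Its range at day 10 was 0.897 to 1.40 FPKM in model mice, against 0.329 to 0.514 FPKM in control mice, also with no overlap. Its log2 difference was 1.255 (SE 0.23) at day 15 and 0.61 (SE 0.23) at day 10, a scale on which the added 1 shrinks the change of a gene near 1 FPKM.

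Serpina3f and Serpina3g spread widely within groups. Serpina3f was at 2.44, 1.63, 12.9 and 5.37 FPKM in model mice of day 15, against 1.63, 4.18, 0.286 and 1.73 FPKM in control mice, and these ranges overlapped. In the mice of day 10 it was at 0.228 to 0.619 FPKM in model mice, against 0.0811 to 0.165 FPKM in control mice, which rest on 7 to 14 reads a library and did not overlap with the model values. Serpina3g was at 4.13, 3.06, 14.1 and 13.8 FPKM in model mice of day 15, against 3.55, 11.4, 1.62 and 3.87 FPKM in control mice. At day 10 it was at 1.39 to 2.16 FPKM in model mice, against 0.876 to 1.87 FPKM in control mice, and it overlapped at both days. The log2 differences at day 15 and day 10 were 1.02 and 0.31 for Serpina3f (SE 0.47 each) and 0.67 and 0.28 for Serpina3g (SE 0.46 each).

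Counted over the 8 genes, model and control mice of day 15 did not overlap for 5 higher genes (Serpina3c, i, k, m and n) and 1 lower gene (Serpina3b). Of all 13039 genes tested, 7.89% were higher and 12.3% lower without overlap at that day. At day 10 there were 6 higher genes (the same 5 and Serpina3f) and 1 lower gene (Serpina3b), beside 12.5% and 9.3% of all genes. Nothing is read from these counts, because this contrast chose the genes. Markers of several cell types moved with it, and none of the markers in the 4 lists that follow was at 0 in any library. The summed FPKM of 10 macrophage genes was 2078 to 4166 in model mice against 1045 to 2085 in control mice at day 15, where the ranges overlapped. At day 10 it was 1624 to 2343 in model mice against 651 to 1039 in control mice. The sum of 8 fibroblast genes was 7382 to 14000 FPKM in model mice against 4733 to 5810 FPKM in control mice at day 15, and 7091 to 10840 FPKM in model mice against 4088 to 6251 FPKM in control mice at day 10. In the direction of Serpina3b, 14 hair shaft and inner root sheath genes summed to 7834 to 13710 FPKM in model mice against 14060 to 17680 FPKM in control mice at day 15. At day 10 they summed to 6471 to 12620 FPKM in model mice against 11210 to 19020 FPKM in control mice, and these ranges overlapped. The sum of 7 basal epidermis genes was 743 to 1344 FPKM in model mice against 1516 to 1712 FPKM in control mice at day 15, and the ranges overlapped at day 10 (1122 to 1538 FPKM in model mice, 1371 to 1705 FPKM in control mice). The part of these cells in the Serpina3 values was not tested.

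Within a library the relation between members does not depend on how libraries were scaled. The opposite movement of Serpina3b and Serpina3k served to choose the genes, so a shift of their ratio between model and control mice was built in. The values of this paragraph are thus a description. In control mice the ratio also divides by Serpina3k values that rest on 12 to 92 reads. In model mice of day 15 the ratio of Serpina3b to Serpina3k had a median of 0.593 (0.433 to 1.44), against 93.8 (26.4 to 201) in control mice. The day 10 median was 3.21 (2.09 to 4.98) in model mice, against 101 (69.2 to 252) in control mice. Serpina3b made up 1.52 to 4.95% of the summed FPKM of the 8 genes in model mice of day 15, against 23.1 to 34.8% in control mice. At day 10 its share was 7.57 to 11.2% in model mice, against 46.7 to 59.0% in control mice. In control mice of day 10 Serpina3b exceeded Serpina3n in every library (ratio 1.23 to 2.34), whereas in all other groups Serpina3n was the higher of the pair.

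**Figure D2:**
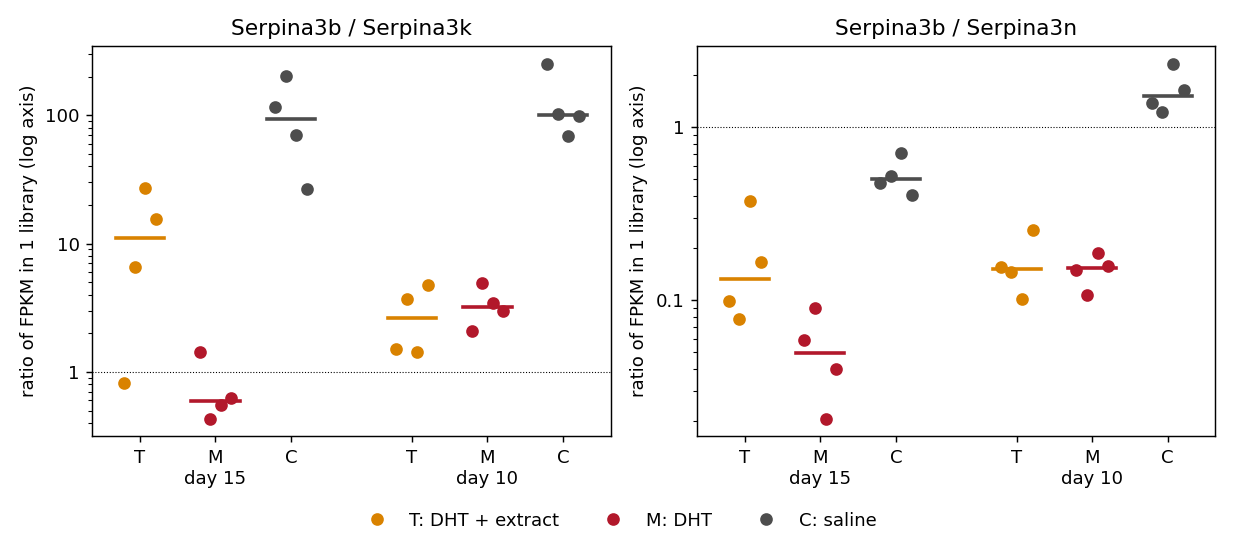
Ratio of Serpina3b to Serpina3k (left) and to Serpina3n (right) within each library on log axes, 1 point per mouse and a bar at the median of 4 mice, for treatment (T), model (M) and control (C) mice at day 15 and day 10. The dotted line marks a ratio of 1. The pair on the left served to choose the genes, so its ratios are a description. Control mice lie between 26.4 and 252 on the left, above every mouse that received DHT except treatment replicate 3 of day 15 (26.9).

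Treatment mice, which also received DHT, were set against the same control libraries, so these values are a description too. At day 15 Serpina3b was the one gene without overlap, at 12.7, 16.3, 19.4 and 28.5 FPKM in treatment mice against the 38.9 to 54.6 FPKM of control mice (log2 difference -1.28, SE 0.27). The count was thus 0 higher and 1 lower, beside 3.1% and 4.0% of all genes. The other 7 genes had log2 differences of 0.04 (Serpina3f) to 1.30 (Serpina3k) between treatment and control mice of day 15. At day 10, 5 genes (Serpina3f, i, k, m and n) were higher and Serpina3b lower without overlap, beside 11.4% and 12.4% of all genes. There the log2 difference was 2.82 for Serpina3k (SE 0.53), 1.90 for Serpina3n (SE 0.34), 1.86 for Serpina3m (SE 0.29) and -1.40 for Serpina3b (SE 0.27).

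The question of the topical extract is addressed by treatment against model mice, both of which received DHT. This contrast is not the one that chose the genes, but it shares the model libraries with it. Serpina3b was low and Serpina3k high in those libraries, and the choice used this. It thus tilts the contrast, at both days, towards Serpina3b higher and Serpina3k lower in treatment mice. The p-values and the counts beside all genes do not allow for that. At day 15, 4 of the 8 genes were called by limma (adjusted p under 0.05, Benjamini-Hochberg over all genes), against 19.7% of all genes. One of them was higher (Serpina3b, beside 10.3% of all genes) and 3 were lower in treatment mice (Serpina3i, Serpina3k and Serpina3m, beside 9.32%). The median log2 difference of the 8 genes was -0.75, against -0.02 over all genes.

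Serpina3b was at 12.7, 16.3, 19.4 and 28.5 FPKM in treatment mice of day 15, against 9.94, 15.8, 5.20 and 6.81 FPKM in model mice. The groups overlapped through model replicate 2. The log2 difference was 0.999 (SE 0.27, limma adjusted p = 0.0143), and the mean of treatment mice was 2.04 times that of model mice. The gene was not called without model replicate 3 (log2 difference 0.78, limma adjusted p = 0.0533), nor without the 4 libraries of low Y-linked sums (limma adjusted p = 0.0546).

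Serpina3k was at 15.5, 2.46, 0.719 and 1.85 FPKM in treatment mice of day 15, against 6.91, 36.5, 9.36 and 10.8 FPKM in model mice. In 3 treatment mice it was below all model mice, while replicate 1 was above 3 of them. The log2 difference was -1.755 (SE 0.53, limma adjusted p = 0.0262). It was not called without model replicate 2 (-1.27, limma adjusted p = 0.102), treatment replicate 3 (-1.34, limma adjusted p = 0.0799) or treatment replicate 4 (-1.58, limma adjusted p = 0.0594).

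Serpina3m was at 10.1, 9.56, 2.88 and 9.78 FPKM in treatment mice of day 15, against 11.9, 21.3, 16.5 and 16.0 FPKM in model mice. It was the one gene of the 8 without overlap in this comparison, lower in treatment mice, which was the case for 4.79% of all genes. The log2 difference was -1.03 (SE 0.29, limma adjusted p = 0.0168), -0.66 without treatment replicate 3 (limma adjusted p = 0.0418) and -0.90 without model replicate 2 (limma adjusted p = 0.056).

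Serpina3i was at 0.929, 2.01, 0.297 and 2.02 FPKM in treatment mice of day 15, against 1.86, 3.02, 5.25 and 2.81 FPKM in model mice. The log2 difference was -0.90 (SE 0.23, limma adjusted p = 0.0115), and it was called without each of the 8 libraries in turn. The 4 remaining genes were not called. Their log2 differences were -0.60 for Serpina3c (limma adjusted p = 0.0793), -0.60 for Serpina3n (limma adjusted p = 0.208), -0.98 for Serpina3f (limma adjusted p = 0.139) and -0.58 for Serpina3g (limma adjusted p = 0.38).

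**Figure D3:**
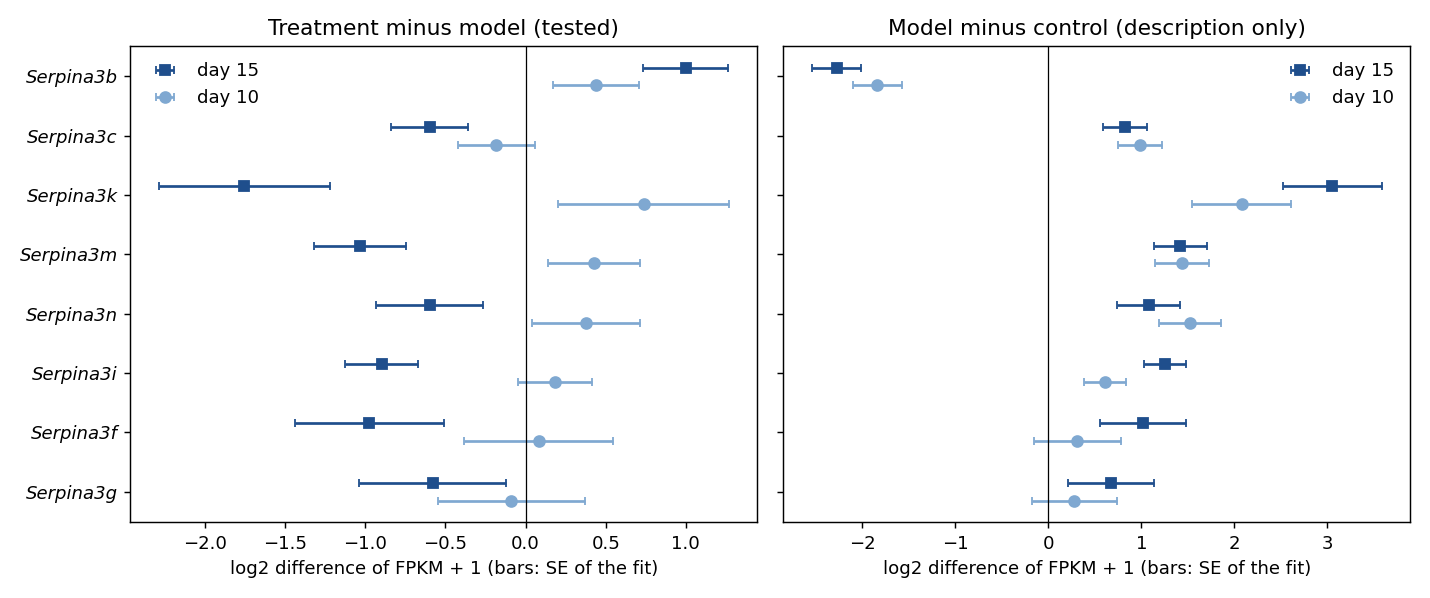
Log2 difference of FPKM + 1 for 8 Serpina3 genes between treatment and model mice (left) and between model and control mice (right, a description with no test), squares at day 15 and circles at day 10, with bars for the standard error of the fit. At day 15 the difference between treatment and model mice is 0.999 for Serpina3b and -1.755 for Serpina3k. Both panels use the model libraries.

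These calls rest on a spread estimated from all 24 libraries. When only the 8 libraries of day 15 were fitted, 0 of the 8 genes and 0 of 13039 genes were called by limma, with 4 members and 2503 genes at an unadjusted p under 0.05. Without treatment replicates 1 and 2, the mice with the lowest Y-linked sums, 4 of 8 genes and 1329 of 13039 genes were called by limma. Without replicate 4 and treatment replicate 3 of day 10 as well, 6 of 8 genes were called beside 3845 of 13039 genes. That fit leaves at day 15 the single treatment mouse replicate 3, assumed to vary like the other groups. Within treatment mice of day 15, replicate 3 had the lowest level of 7 of the 8 genes, Serpina3b being the exception. Its macrophage sum of 748 FPKM was also the lowest of that group, the others having 1695 to 2938, against 2078 to 4166 FPKM in model mice. The fibroblast sum was 2756 FPKM in that mouse and 6548 to 9251 FPKM in the other treatment mice, against 7382 to 14000 FPKM in model mice. Of 10 macrophage markers, 3 (Mrc1, Cd163 and Mertk) were called lower and 0 higher in treatment mice of day 15, as were 2 (Dcn and Lum) and 0 of 8 fibroblast markers. All 14 hair shaft and inner root sheath markers were called higher, their sum being 16150 to 19550 FPKM in treatment mice against 7834 to 13710 FPKM in model mice. The part of these cells in the Serpina3 differences was not tested.

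At day 10 treatment and model mice had no called difference in the cluster. By limma 0 of 8 genes were called, with 0 at an unadjusted p under 0.05 and 0 by voom on recovered reads, against 0.192% of all genes called. None of the 8 was free of overlap, against 8.99% of all genes. Serpina3k was at 17.1, 8.19, 14.4 and 6.10 FPKM in treatment mice of day 10, against 6.41, 3.20, 6.91 and 8.63 FPKM in model mice, with a log2 difference of 0.74 (SE 0.53, limma adjusted p = 0.656). Serpina3b was at 25.9, 30.4, 20.5 and 29.3 FPKM in treatment mice, against 13.4, 15.9, 23.8 and 25.8 FPKM in model mice, with a log2 difference of 0.44 (SE 0.27, limma adjusted p = 0.58). Serpina3m and Serpina3n had log2 differences of 0.43 (SE 0.29) and 0.38 (SE 0.34). The model mice of this comparison, and not the treatment mice, held the kidney genes, so that RNA and the group cannot be told apart here.

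The differences of Serpina3k, Serpina3m, Serpina3n, Serpina3i and Serpina3f (0.08 at day 10) were below 0 at day 15 and above 0 at day 10. The change of the difference between days was tested itself. By limma 0 of 8 genes were called, with 3 at an unadjusted p under 0.05 and 0 called by voom, against 0.0997% of all genes. The 3 were Serpina3k (change of -2.49, SE 0.75, limma adjusted p = 0.152), Serpina3m (-1.46, SE 0.40, limma adjusted p = 0.138) and Serpina3i (-1.08, SE 0.32, limma adjusted p = 0.151). The change for Serpina3b was 0.56 (SE 0.38, limma adjusted p = 0.523). Without the 4 libraries of low Y-linked sums 4 of the 8 genes and 408 of 13039 genes were called by limma, again with replicate 3 as the only treatment mouse of day 15.

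Between the days, 7 of the 8 members were tested, and Serpina3f, which passed the filter through day 15 alone, is given as a description. The model and control libraries of both days also served to choose the genes. The p-values between days in these mice do not allow for that. Model mice of day 15 differed from those of day 10 in 3 of the 7 genes by limma, against 8.47% of all genes called. Serpina3g and Serpina3i were higher at day 15 (beside 1.62% of all genes) and Serpina3b was lower (beside 6.85%). Serpina3f was at 2.44, 1.63, 12.9 and 5.37 FPKM in model mice of day 15, against 0.349, 0.401, 0.619 and 0.228 FPKM at day 10, with a log2 difference of 1.935 (SE 0.47). Serpina3g was at 4.13, 3.06, 14.1 and 13.8 FPKM at day 15, against 1.39, 1.72, 1.90 and 2.16 FPKM at day 10, with a log2 difference of 1.57 (SE 0.46, limma adjusted p = 0.0391). For both genes the lowest mouse of day 15 was above the highest of day 10.

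Serpina3i was at 1.86 to 5.25 FPKM in model mice of day 15, against 0.897 to 1.40 FPKM at day 10 (log2 difference 0.89, SE 0.23, limma adjusted p = 0.0249). Serpina3b was at 5.20 to 15.8 FPKM at day 15, against 13.4 to 25.8 FPKM at day 10 (log2 difference -1.05, SE 0.27, limma adjusted p = 0.0243). In all, 4 of the 7 genes (Serpina3g, i, m and n) were higher at day 15 without overlap, beside 2.65% of all genes. None of the 3 called genes stayed past the threshold without model replicate 3 of day 15 (limma adjusted p = 0.12 to 0.174) or without model replicate 4 of day 10 (limma adjusted p = 0.055 to 0.0825). Serpina3g was also not called without any 1 of model replicates 1, 2 and 3 of day 10 and 4 of day 15 (limma adjusted p = 0.0736 to 0.093), Serpina3i without any 1 of replicates 1, 2 and 3 of day 10 (0.0513 to 0.0546) and Serpina3b without replicate 3 of day 10 (0.0664). The call of Serpina3g was also lost with median-of-ratios scaling (limma adjusted p = 0.0511), without a filter (0.0502) and by voom on recovered reads (0.0667), and that of Serpina3i at a pseudocount of 0.1 (0.0598). Fitted on these 8 libraries alone, 0 of the 8 members (Serpina3f counted) and 8 of 13039 genes were called by limma. At an unadjusted p under 0.05 were 6 members and 2798 of all genes. Replicate 3 of day 15 was the library with the high neutrophil markers, and it held the highest Serpina3f, Serpina3g, Serpina3i and Serpina3n and the lowest Serpina3b of its group. Of 10 markers each, 5 of differentiating epidermis and 4 of sebaceous gland were called lower at day 15 and 0 higher, and the kidney genes were in the day 10 mice. Of 7 basal epidermis markers 1 was called lower (Krt15). Called higher were 4 of 14 hair shaft and inner root sheath markers and 1 of 6 stressed epidermis markers (Krt6a). Over all genes 6.85% were called lower and 1.62% higher. The part of these cells in the Serpina3 values was not tested.

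In control mice no member was called between the days. By limma 0 of the 7 genes were called, with 4 at an unadjusted p under 0.05 and 0 called by voom, against 4.81% of all genes called by limma. Serpina3m and Serpina3n were higher at day 15 without overlap (beside 7.01% of all genes) and Serpina3b was lower (beside 15.4%). Serpina3n was at 114, 74.9, 76.2 and 96.3 FPKM in control mice of day 15, against 50.7, 61.8, 24.9 and 49.2 FPKM at day 10 (log2 difference 0.99, SE 0.34, limma adjusted p = 0.0825). Serpina3k had a log2 difference of 0.01 (SE 0.53) between the days in control mice.

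In treatment mice 0 of the 7 genes were called by limma between day 15 and day 10, with 3 at an unadjusted p under 0.05 and 0 called by voom, against 9.64% of all genes. None of the 7 was free of overlap, against 14.2% of all genes. Serpina3k was at 15.5, 2.46, 0.719 and 1.85 FPKM in treatment mice of day 15, against 17.1, 8.19, 14.4 and 6.10 FPKM at day 10 (log2 difference -1.51, SE 0.53, limma adjusted p = 0.077). Serpina3m had a log2 difference of -0.79 (SE 0.29, limma adjusted p = 0.0846) and Serpina3g one of 1.09 (SE 0.46, limma adjusted p = 0.136). Without the 4 libraries of low Y-linked sums 3 genes (Serpina3k, Serpina3m and Serpina3n) were called by limma beside 967 of 13039 genes, with replicate 3, the lowest of its group in 7 of the 8 members, as the only treatment mouse of day 15.

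The members fell into different patterns over the 24 libraries. Likeness was measured as the root mean square difference of log2(FPKM + 1) after each gene was centred on its mean, over 12712 genes, and it is a description of these libraries. Serpina3m and Serpina3n were nearer to each other (0.289) than either was to any other gene compared. Serpina3f and Serpina3g lay 0.351 apart, against medians over all genes of 1.03 for Serpina3f and 0.963 for Serpina3g. Serpina3b lay 1.35 to 2.21 from the other 7 members, against a median of 0.978 over all genes. The largest of these distances was to Serpina3k. The opposite movement of this pair in these libraries served to choose the genes, so a large distance between them was built in.

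**Figure D4:**
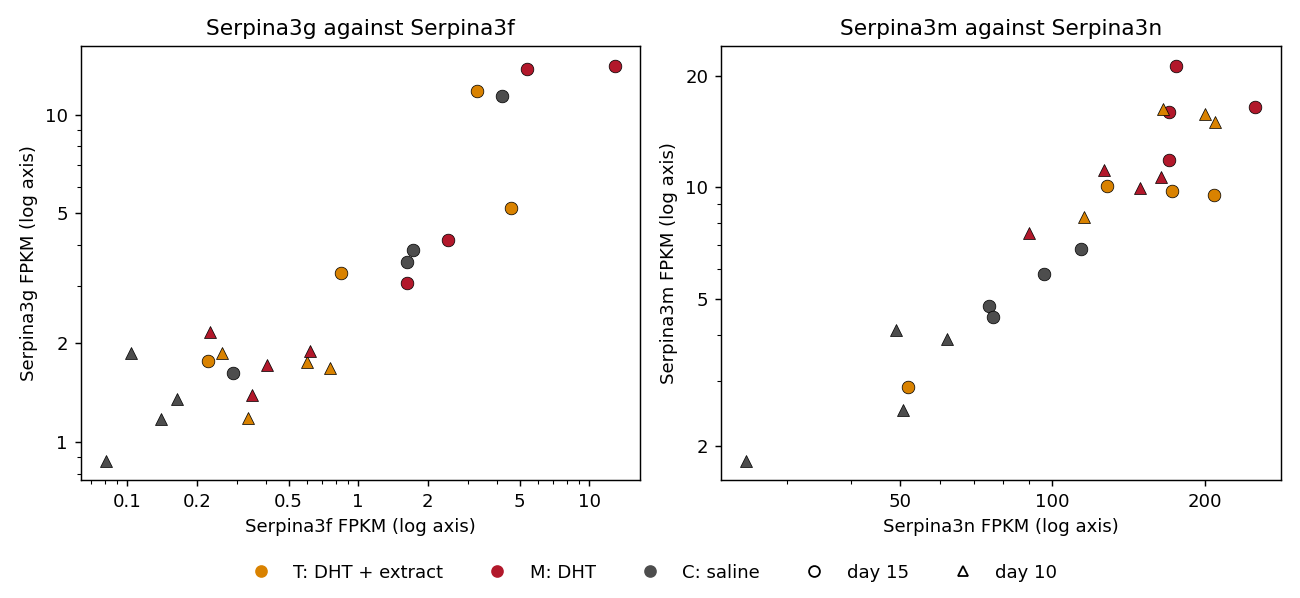
FPKM of Serpina3g against Serpina3f (left) and of Serpina3m against Serpina3n (right) on log axes, 1 point per mouse, circles for day 15 and triangles for day 10, coloured by treatment (T), model (M) and control (C). On the left, mice of day 15 reach 12.9 FPKM of Serpina3f and 14.1 FPKM of Serpina3g in model replicate 3, while all mice of day 10 lie at or below 0.754 and 2.16 FPKM.

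Outside the cluster, the genes nearest to Serpina3b were Serpinb6e, a clade B serpin (0.56), Acsbg1, an acyl-CoA synthetase (0.62), Cyp2g1, a cytochrome P450 (0.66), Alox12e, an epidermal lipoxygenase (0.66), and the hepcidin gene Hamp2 (0.67). Nearest to Serpina3k were Ctla2a, a cysteine protease inhibitor gene (0.69), the complement gene C7 (0.695), Ace, the angiotensin-converting enzyme (0.825), the estrogen sulfotransferase gene Sult1e1 (0.87) and Cyp2b23 (0.87). The nearest to Serpina3m were Ace (0.35), Ms4a4d (0.36), the complement gene C6 (0.38), Layn (0.39) and the macrophage scavenger receptor gene Cd163 (0.39). To Serpina3n they were Wfdc17 (0.32), the Fc receptor gene Fcgr2b (0.33), the macrophage gene Cd68 (0.33), the lysosomal protease gene Lgmn (0.34) and Laptm5 (0.355). The 5 nearest to Serpina3f were all interferon-inducible GTPase genes, Gbp5 (0.27), Gbp6 (0.29), Tgtp2 (0.29), Igtp (0.29) and Gbp2 (0.32). Serpina3g was nearest to Slamf8 (0.31), Tgtp2 (0.32), Gbp6 (0.33), Igtp (0.33) and Calhm6 (0.35). Serpina3i was nearest to the endotoxin receptor gene Tlr4 (0.19) and Serpina3c to the retinal dehydrogenase gene Aldh1a1 (0.21).

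The proteases that such serpins could meet were followed in a list of 28 genes, of which 20 were tested. Between treatment and model mice of day 15, 2 of the 20 were called lower and 0 higher, a share of 10.0% beside the 9.32% of all genes called lower. Ctsk, the collagen-degrading cathepsin K, was at 232 ± 90.2 FPKM in treatment mice and 538.5 ± 241 FPKM in model mice (log2 difference -1.22, SE 0.31, limma adjusted p = 0.0116). Klk1, a tissue kallikrein, had a log2 difference of -0.855 (SE 0.27, limma adjusted p = 0.0315). The median of the list was -0.145, against -0.02 over all genes. At day 10, 0 of 20 were called.

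Between day 15 and day 10 in model mice, 1 of the 20 was called higher and 3 lower, beside 1.62% and 6.85% of all genes. Gzmb, granzyme B, a target of Serpina3n, was at 11.7 ± 12.9 FPKM in model mice of day 15 and 0.645 ± 0.245 FPKM at day 10 (log2 difference 2.31, SE 0.59, limma adjusted p = 0.0242). It reached 1 FPKM in 4 model mice of day 15 and 0 of day 10, and in 10 libraries of day 15 against 3 of day 10. Its passing of the filter thus favours a difference between days, which the p-value does not allow for. Fits without single libraries are not given for this gene. The lower ones were the epidermal kallikreins Klk5, Klk8 and Klk13, with log2 differences of -0.865, -1.16 and -0.63. In treatment mice 7 were called lower and 0 higher at day 15, beside 7.53% and 2.11% of all genes, Klk6 (-1.74, SE 0.29, limma adjusted p = 0.00295) and Klk11 (-1.15, SE 0.26, limma adjusted p = 0.00989) having the smallest p. Markers of skin cells moved between these treatment mice too. Called lower were 4 of 7 basal, 2 of 10 differentiating and 3 of 6 stressed epidermis markers, 6 of 10 of sebaceous gland and 3 of 8 of fibroblasts. Of 14 hair shaft and inner root sheath markers, 10 were called higher. The part of these cells in the protease values was not tested. In control mice 1 of the 20 proteases was higher (Ctss, cathepsin S, log2 difference 1.53) and 2 lower (Klk1, -0.95, and Klk13, -0.99), beside 1.48% and 3.33% of all genes. Cathepsin G, a textbook target of human SERPINA3, was at most 0.325 FPKM (Ctsg) in any library, and neutrophil elastase at most 0.439 FPKM (Elane).

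Of 27 genes of the acute phase and its IL-6 and STAT3 signal, through which this family is known to be induced in liver, 19 were tested. Between treatment and model mice of day 15, 3 were called lower and 0 higher, a share of 15.8% beside 9.32% of all genes. They were Il6ra, the IL-6 receptor (log2 difference -0.53, SE 0.15, limma adjusted p = 0.0198), Il1r1, the IL-1 receptor (-0.55, SE 0.17, limma adjusted p = 0.0276), and Stat3 (-0.47, SE 0.17, limma adjusted p = 0.0475). The list's median was -0.34. Between day 15 and day 10, 0 of the list were higher in treatment mice (median 0.32), 3 in model mice (Il1r1, Stat3 and Cebpb, median 0.64) and 3 in control mice (Saa3, C3 and Cp, median 0.87), with 0 lower in each, beside 2.11%, 1.62% and 1.48% of all genes called higher.

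Of 14 genes that respond to glucocorticoid or androgen, all tested, 1 was called higher and 4 lower in treatment than in model mice of day 15, beside 10.3% and 9.32% of all genes, with a list median of -0.38. Tsc22d3 (GILZ) had a log2 difference of -0.86 (SE 0.17, limma adjusted p = 0.00288), Klf9 one of -0.62 (SE 0.13, limma adjusted p = 0.0038), Nr3c1, the glucocorticoid receptor, one of -0.37 (SE 0.08, limma adjusted p = 0.00418), and the cell cycle inhibitor gene Cdkn1a one of 0.44 (SE 0.11, limma adjusted p = 0.0119). At day 10, 0 of the 14 and 0 of the 19 acute phase genes were called between treatment and model mice.

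Of 16 other clade A serpins, 5 were tested, and 1 was called between treatment and model mice of day 15, beside 19.7% of all genes. Serpina1e, an alpha-1-antitrypsin gene, was at 7.52 ± 1.15 FPKM in treatment mice and 4.45 ± 1.65 FPKM in model mice (log2 difference 0.69, SE 0.23, limma adjusted p = 0.0408). Serpina3j, which lies inside the cluster but was not chosen, averaged 25.9 ± 8.70 FPKM in model mice of day 15 against 38.55 ± 7.30 in control mice, and 45.7 ± 15.9 FPKM in model mice of day 10 against 80.8 ± 24.7 in control mice. It was called in none of the comparisons tested here. Serpina3a was at most 0.099 FPKM in any library.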

How the data were processed

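Skin RNA of 24 mice was analysed, grouped by the sample titles. Per the submitters' processing notes, reads were processed with fastp, HISAT2 and HTSeq on GRCm39; their versions, the annotation release and the handling of strand and of multiply mapped reads are not given in the sources used here. The authors deposited FPKM values for 18892 genes in 24 columns, all used, with totals of 413117 to 455945. The steps between FPKM values of a gene gave whole reads for 18715 of 18715 genes above 0 (100.0%, tolerance 0.01 of a read for low and 0.05 for high genes).

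Values were taken as log2(FPKM + 1). A gene was tested where 4 or more libraries reached an FPKM of 1 (13039 genes kept, 5853 removed). In limma 3.58.1 under R 4.3.3, lmFit estimated a mean for each of the 6 groups from the 24 libraries, and contrasts were tested by eBayes (trend = TRUE, robust = TRUE), two-sided, with Benjamini-Hochberg adjustment over all genes, and checked on simulated data. A gene was called at an adjusted p under 0.05. The labels describe separate mice, so each difference was set against a spread between mice. That spread was estimated from all 6 groups and drawn by eBayes towards that of genes of like level. The sequences, from RefSeq (GRCm38.p6) and GENCODE M21, were compared with Biopython 1.88 and Python 3.11.15.

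All 9 genes are named in every group. The 5 genes most like each member are those of smallest root mean square difference, and from each pathway list up to 4 called genes of smallest p were named with their values. The members and lists were chosen with earlier results of these data known. Alternatives were a pseudocount of 0.1, other filters and scalings, only the groups compared, a replicate block, voom on the recovered reads (2586 genes called between treatment and model mice of day 15, against 2563), and leaving out each library or those of low Y-linked FPKM.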

Additional observations from a re-analysis of the deposited data

Results flagged for a closer look

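Of 48 groups of 4 mice checked (8 genes in 6 groups), 5 held a library far from the other 3, its gap to the nearest of them, relative to the group's range, being above Dixon's critical value. Chance flags about 1 in 20 such groups. Serpina3k was far above the rest in treatment replicate 1 of day 15 (15.5 FPKM, the others at 0.719 to 2.46) and in model replicate 2 of day 15 (36.5 FPKM, the others at 6.91 to 10.8). Serpina3m was far below the rest in treatment replicate 3 of day 15 (2.88 FPKM, the others at 9.56 to 10.1) and in treatment replicate 4 of day 10 (8.30 FPKM, the others at 15.0 to 16.3). Serpina3n was far above the rest in model replicate 3 of day 15 (251 FPKM, the others at 169.5 to 175.6), the library with the high neutrophil markers.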

How the results depend on the processing

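These settings moved a count of called genes by over 1.5 times. Between treatment and model mice of day 15, 4 genes were called, beside 2563 of all 13039 genes. The count was 0 with only the groups compared, beside 0 of all genes. Without each library in turn it was 2 to 5, beside 1221 to 2947 (2 without model replicate 2, beside 1684). For day 15 against day 10 in model mice 4 were called, Serpina3f counted here, beside 1104 of all genes. The count was 1 at a mean FPKM of at least 5, which drops low members, beside 701 of 8684 genes. It was 0 with only the groups compared (beside 8) and 2 by voom (beside 1100). Without each library it was 0 to 4, beside 146 to 1522. For the same days in treatment mice 0 were called, beside 1257 of all genes. The count was 2 with a common total per library (beside 1932) and 1 without the 2 libraries of lowest Y-linked FPKM (beside 236). Without each library it was 0 to 1, beside 425 to 2531. It also moved without all 4 libraries under 0.8 of the median Y-linked FPKM, a setting chosen after seeing the data. That setting left 1 treatment mouse of day 15. In control mice 0 were called, beside 627 of all genes. The count was 3 with only the groups compared, Serpina3f among them, beside 1938 of all genes. At a pseudocount of 0.1 it was 1, Serpina3f alone, beside 664. The filter built a difference between days into that gene, so nothing is read from its calls. The change of the treatment-model difference between days gave 0 called, beside 13 of all genes. Without each library it gave 0 to 1, beside 7 to 94. This count also moved without the 4 libraries of low Y-linked FPKM, which left 1 treatment mouse of day 15. The cause was not tested.

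Among single genes 11 values changed sign, all of them not called. Serpina3k between days in control mice (0.01) was -0.0 with a common total, -0.067 at a pseudocount of 0.1, -0.111 by voom, and -0.114, -0.018 and -0.181 without control replicate 1 of day 10, replicate 3 of day 15 or replicate 4 of day 15 (up to 0.169 without another library). Serpina3c between days in model mice was -0.147 without model replicate 2 of day 15 (up to 0.266 without another), and Serpina3i between days in treatment mice 0.06 without replicate 3 of day 15 (down to -0.347 without another). Serpina3f in treatment mice was -0.184 between days without the 4 libraries of low Y-linked FPKM. Against model mice of day 10 it was -0.002 without those libraries and -0.002 without treatment replicate 3 (up to 0.157 without another).

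With a replicate block 4 genes were called between treatment and model mice at day 15, beside 2428 of all genes. At day 10 the count was 0, beside 27. Between days the counts were 0, 4 and 0 in treatment, model and control mice, beside 1211, 948 and 506. The 4 of model mice include Serpina3f, whose difference between days was built in by the filter. The change of the difference gave 0, beside 12. The numbers did not pair the mice, with correlations of residuals of -0.631 to 0.509 (median 0.047) at the same number and -0.555 to 0.608 at different numbers. Low members are limited by depth, Serpina3f resting on as few as 7 reads.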
